A study of Mus musculus with 42 samples.

Results

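The germ cells of the testis silence transposable elements with PIWI-interacting RNAs (piRNAs). The 32 genes described here encode the PIWI proteins that carry these small RNAs, the enzymes and scaffolds that make them, and proteins that act on chromatin downstream of them. Others encode proteins of the germ granules in which piRNAs are handled, regulators of the pathway's transcription, and further Tudor domain proteins, among them Tdrd3, which is made in many tissues. The 32 genes were picked by name for these roles, and the rule that picks them uses no measured value, but the list was drawn up with earlier results of these data known. All of them were found among the 27179 genes of the count table by their Entrez gene identifiers, and all 32 had enough counts to be tested in every comparison.

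RNA was sequenced from 12 libraries of mouse spermatogonia, in 4 groups of 3. All donors were C57BL/6J males at 10 days postpartum (dpp). Thy1+ cells, enriched for undifferentiated spermatogonia, and c-Kit+ cells, enriched for differentiating spermatogonia, were taken from the testes with magnetic beads, the c-Kit+ cells first and the Thy1+ cells from what flowed through. Controls were Ddx4-Cre/Chd8+/F and mutants Ddx4-Cre/Chd8F/-, so that both genotypes carried a Cre recombinase driven in germ cells by the Ddx4 promoter and a floxed allele of Chd8, the gene of a chromatin remodeler. The controls differ from the mutants by 1 intact Chd8 allele and are not wild type. The methods give 3 male pups for each analysis and do not say whether a library pools pups, so the p-values measure the spread between these libraries.

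piRNAs are cut from long single-stranded precursors. An RNA helicase hands the precursor to a nuclease on the outer mitochondrial membrane, a PIWI protein takes up the fragment, and its end is trimmed and methylated. Tudor domain proteins bind methylated arginines of PIWI proteins and hold the machinery together in the intermitochondrial cement and, later, in the chromatoid body. Before birth piRNAs direct DNA methylation to transposons, and at the pachytene stage of meiosis, which follows the stages sampled here, a second and much larger set of piRNAs is made under the transcription factor encoded by Mybl1.

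Total counts per library lay between 32266861 and 45396233, and the 32 genes took 0.206% to 0.537% of them. The targeted gene does not check the genotype labels here: Chd8 lay between 257 and 310 CPM (counts scaled to a common library size) in all 12 libraries, but the floxed allele loses only some of its exons and the counts cover the whole gene. Thy1 was at 11.8 to 17.3 CPM in Thy1+ libraries and at 0.440 to 1.05 CPM in c-Kit+ libraries. Kit was at 176 to 438 CPM in the former and at 633 to 768 CPM in the latter, so the Thy1+ libraries held Kit RNA as well. Library 2 of both Thy1+ groups stood apart for these genes. It was the highest of its 3 libraries for 29 of the 32 members in the Thy1+ controls and for 29 in the Thy1+ mutants, against 35.1% and 40.2% of all tested genes. In c-Kit+ cells library 2 was highest for 23 members in the controls and 20 in the mutants, against 32% and 33.8% of all genes. The results that rest on it are given with and without it.

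Levels of different genes were compared per kilobase of exon. In the c-Kit+ controls the order began with Fkbp6, a co-chaperone of PIWI loading, at 203 CPM per kb, followed by Mael, a protein of nuage and nucleus, at 149.8 and by Ddx4, the germ cell RNA helicase also called Vasa or MVH, at 146. Piwil2, Tex15, Tex19.1 and Mov10l1 followed at 126, 103, 100.2 and 86.2 CPM per kb. At the other end stood Tdrd3 at 4.43, Spocd1 at 1.89 and Tdrd6 at 0.276 CPM per kb. Tdrd6, a scaffold of the chromatoid body of spermatids, was thus close to the floor of detection, with 1.01 to 2.94 CPM in the 12 libraries. Of the 31 steps between neighbours in this order, 23 had overlapping library ranges in the c-Kit+ controls and 28 in the Thy1+ controls, so most neighbouring ranks were not separated by the spread between libraries. The 3 genes of the PIWI family differed widely in level. Piwil2, whose product MILI is made from the fetal gonocyte to the round spermatid, was at 126 CPM per kb in c-Kit+ controls, whereas Piwil1, the pachytene family member MIWI, and Piwil4, the fetal nuclear family member MIWI2, were at 5.07 and 5.04.

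**Figure D1:**
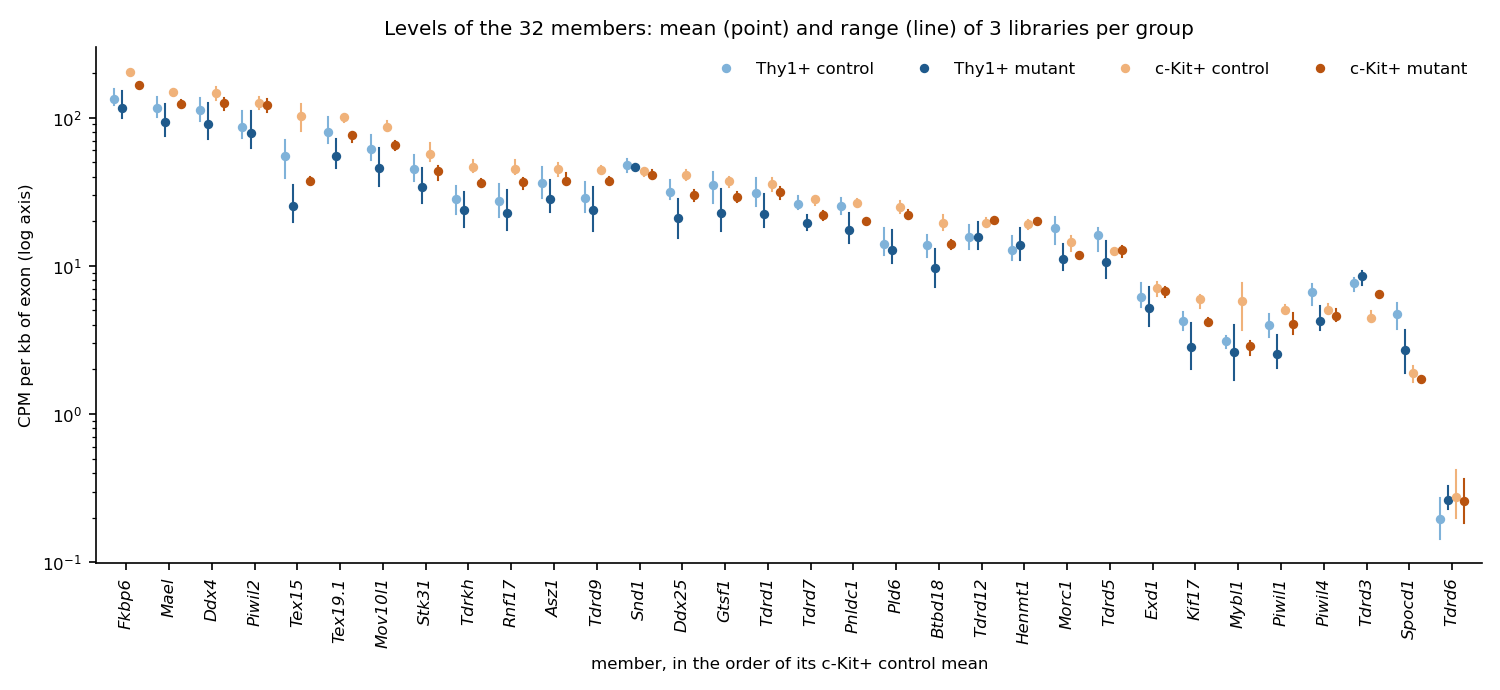
Level of each of the 32 genes in CPM per kilobase of exon (vertical log axis), ordered by the mean of the c-Kit+ controls; points are group means and lines the range of 3 libraries. Fkbp6 leads at 203 CPM per kb in c-Kit+ controls and Tdrd6 is last at 0.276, while Tex15 shows the widest gap between control and mutant in the c-Kit+ cells.

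Because the list holds genes that are often expressed together, their promoters were read from the RefSeq table of the GRCm38.p6 build, which has a window for 24 of the 32 genes, from 250 bases before the start of transcription to 50 after it. No window was given for Piwil2, Tdrd6, Rnf17, Pnldc1, Spocd1, Morc1, Tex15 and Mybl1. Each window was searched on both strands for AACNGCC, the core bound by MYB proteins, for the E-box CACGTG, which reads the same on both strands, and for GGCGGGAA, an E2F6-type site. The E-box was found in 10 of the 24 windows (41.7%), against 8.05% of the 18457 windows of genes in the count table. The MYB core was found in 6 (25%), against 12.4% of all, and the E2F6-type site in 1, that of Ddx4 (4.17%, against 2.94%). No match overlapped another. The median number of CpG dinucleotides was 23.5 per window, against 13 over all windows, with an observed to expected ratio of 0.780 against 0.571. These are counts of letters and not of bound factors, and the members were not chosen by their promoters.

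The 250 bases before the start site are shown for 5 genes, in lower case with the matches in capitals. Piwil1 is shown for the most matches, and Fkbp6 and Tdrd9 as members with a pair of E-boxes that were called higher in c-Kit+ than in Thy1+ controls. Kif17 and Tdrd3 are shown as the members with a window that were called between genotypes in c-Kit+ cells. Of the other members with an E-box, Pld6 was also called between the controls. Piwil1, Tdrd1, Stk31, Mov10l1, Mael, Ddx4 and Ddx25 were not, and a link between motif and level was not tested. The windows of Piwil1 (chr5:128735996-128736245, plus strand), Fkbp6 (chr5:135350045-135350294, minus strand), Tdrd9 (chr12:111971309-111971558, plus strand), Kif17 (chr4:138262001-138262250, plus strand) and Tdrd3 (chr14:87416333-87416582, plus strand) read as follows.
Piwil1: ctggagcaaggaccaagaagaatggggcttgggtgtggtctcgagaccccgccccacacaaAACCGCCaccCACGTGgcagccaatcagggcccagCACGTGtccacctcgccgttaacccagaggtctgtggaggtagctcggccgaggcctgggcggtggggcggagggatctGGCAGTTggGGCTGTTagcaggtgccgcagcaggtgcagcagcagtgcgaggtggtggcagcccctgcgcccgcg
Fkbp6: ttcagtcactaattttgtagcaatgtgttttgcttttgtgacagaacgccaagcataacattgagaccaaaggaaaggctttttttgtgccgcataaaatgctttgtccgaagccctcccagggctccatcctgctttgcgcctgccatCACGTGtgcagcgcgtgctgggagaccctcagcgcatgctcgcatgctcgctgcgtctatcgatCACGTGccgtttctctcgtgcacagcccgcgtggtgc
Tdrd9: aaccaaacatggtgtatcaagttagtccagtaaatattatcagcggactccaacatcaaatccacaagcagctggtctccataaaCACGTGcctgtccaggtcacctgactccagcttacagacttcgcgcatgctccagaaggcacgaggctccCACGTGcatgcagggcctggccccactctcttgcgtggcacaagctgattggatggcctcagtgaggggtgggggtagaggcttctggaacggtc
Kif17: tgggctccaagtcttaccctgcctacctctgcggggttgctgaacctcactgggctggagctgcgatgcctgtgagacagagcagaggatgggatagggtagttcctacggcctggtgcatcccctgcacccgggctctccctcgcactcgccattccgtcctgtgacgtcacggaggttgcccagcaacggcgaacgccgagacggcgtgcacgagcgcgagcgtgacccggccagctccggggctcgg
Tdrd3: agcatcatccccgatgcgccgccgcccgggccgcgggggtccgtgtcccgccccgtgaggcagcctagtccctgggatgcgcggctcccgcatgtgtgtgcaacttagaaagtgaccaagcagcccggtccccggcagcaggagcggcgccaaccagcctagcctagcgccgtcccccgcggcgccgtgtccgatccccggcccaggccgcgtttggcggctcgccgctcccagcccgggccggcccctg
The Piwil1 window holds 3 MYB cores and 2 E-boxes, the Fkbp6 and Tdrd9 windows hold 2 E-boxes each, and no match was found in those of Kif17 and Tdrd3, which had 31 and 43 CpG dinucleotides.

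The first comparison asked which of these genes differed between mutant and control c-Kit+ spermatogonia. Tex15, Mybl1 and Kif17 fell and Tdrd3 rose, by edgeR's quasi-likelihood test with a false discovery rate (FDR, Benjamini-Hochberg over all 17134 genes tested) under 0.05 and a log2 change over 0.5. In mm10 the counted exons place Tex15 on chromosome 8 from 33570544 to 33585585 (plus strand), Mybl1 on chromosome 1 from 9668831 to 9700209 (minus strand), Kif17 on chromosome 4 from 138262251 to 138301973 (plus strand) and Tdrd3 on chromosome 14 from 87416583 to 87545508 (plus strand), and values are sums over all exons of a gene. Thus 3 of 32 members were called lower, against 7.41% of all genes tested, and 1 was called higher, against 14.8% of all. Without the minimum on the size of the change, 17 members (53.1%) passed the FDR as lower, against 18.3% of all genes, and 1 as higher, against 20.8%. With the replicate number as a block the members called were again 3 lower and 1 higher, and 21 members passed the FDR as lower, against 20.2% of all genes, the 4 added being Piwil1, Tdrd1, Asz1 and Ddx4. The median log2 fold change of the members was -0.30, beside 0.01 over all genes. The point estimate was lower in 29 of the 32 members, but in only 2 of 32 after the libraries were scaled to a list of 12 other germ cell genes. That scaling called Tex15 lower, against 1.9% of all genes, and Tdrd3, Tdrd5, Tdrd12 and Henmt1 higher, against 46.9% of all.

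Tex15, which recruits the silencing machinery downstream of the nuclear PIWI protein and is also needed for meiotic recombination, changed most. It measured 686, 1041 and 858 CPM in the 3 control libraries and 309, 333 and 299 CPM in the 3 mutant libraries. Every mutant library was thus below every control library, by 2.78-fold in the fit (log2 fold change -1.47 ± 0.13 SE, adjusted p 0.000132). Tex15 was the most abundant member in control c-Kit+ cells by CPM, with 18.1% of the summed CPM of the 32 genes, and made up 8.64% of that sum in the mutants. It remained lower after scaling to the germ cell list, with a log2 fold change of -0.94 and an adjusted p of 5.13e-05.

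Mybl1 encodes A-MYB, the transcription factor that turns on pachytene piRNA precursors and many genes of the pathway. It was at 13.2, 27.5 and 21.0 CPM in the controls and at 11.2, 10.7 and 8.87 CPM in the mutants. The lowest control library was close to the highest mutant library, and the controls spread more widely than the mutants. The log2 fold change was -1.02 ± 0.23 (adjusted p 0.00553), and -0.49 with an adjusted p of 0.0602 under the germ list scaling. Btbd18, whose product helps RNA polymerase elongate through pachytene piRNA loci, measured 61.1, 77.8 and 67.2 CPM in controls and 49.6, 52.7 and 46.0 CPM in mutants. The groups did not overlap, and its log2 fold change of -0.49 ± 0.10 passed the FDR (adjusted p 0.00331) but lay just under the minimum change, and became 0.04 under the germ list scaling.

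Kif17, a kinesin that moves RNA and a transcriptional coactivator between nucleus and chromatoid body, was at 24.95, 25.1 and 20.3 CPM in controls and at 15.8, 17.5 and 16.1 CPM in mutants. The groups did not overlap, and the log2 fold change of -0.52 ± 0.11 (adjusted p 0.005) lay just past the minimum. Its call was lost when control library 1, control library 2 or mutant library 1 was left out, with values between -0.49 and -0.47, in the joint fit of all 12 libraries (-0.46, adjusted p 0.134) and with the block when pair 1 was left out (-0.45), and the difference was 0.01 under the germ list scaling. Ddx25, an RNA helicase of the chromatoid body known as GRTH, measured 63.2, 74.1 and 67.9 CPM in controls and 49.9, 54.2 and 46.1 CPM in mutants (log2 fold change -0.47 ± 0.09, adjusted p 0.0024).

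Tdrd3, a Tudor domain protein made in many tissues and best known as a partner of topoisomerase 3-beta, moved the other way. It measured 25.7, 25.6 and 30.3 CPM in controls and 40.9, 37.4 and 40.1 CPM in mutants. All mutant libraries were above all control libraries (log2 fold change 0.52 ± 0.10, adjusted p 0.00202), and the same genotype difference under the germ list scaling was 1.05. Leaving out control library 1, control library 2 or mutant library 1 brought the value to between 0.48 and 0.49 and ended the call, with adjusted p still between 0.00475 and 0.0123. Of the 32 members only Tdrd3 had all mutant libraries above all control libraries in these cells, and 28.1% of all tested genes had that pattern. For the 17 members whose mutant libraries lay all below the control libraries the share of all tested genes was 24%.

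Among the other Tudor domain genes, Tdrd7, Tdrd9, Tdrkh, Rnf17 and Stk31 passed the FDR as lower in mutant c-Kit+ cells with log2 fold changes between -0.40 and -0.27, which became 0.13 to 0.26 under the germ list scaling, and Tdrd1, Tdrd5, Tdrd6, Tdrd12 and Snd1 did not pass, although Tdrd1 did with the block (adjusted p 0.0122). Tdrkh, which tethers PIWI proteins to mitochondria for trimming, was at 114, 138 and 119.6 CPM in controls and at 96.0, 102.5 and 90.6 CPM in mutants (log2 fold change -0.38 ± 0.08, adjusted p 0.0061). Rnf17 and Stk31, components of germ granules, stood at -0.31 and -0.40. Tdrd12, a factor of secondary piRNA production, measured 29.8, 31.1 and 34.0 CPM in controls and 31.4, 33.3 and 34.8 CPM in mutants, and the groups overlapped.

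Of the 10 genes for processing enzymes and cofactors, Mov10l1, Pnldc1, Fkbp6, Gtsf1 and Mael passed the FDR as lower, and their values became 0.10 to 0.24 under the germ list scaling. Mov10l1, the helicase that feeds precursors into the pathway, measured 331, 384 and 334 CPM in controls and 269, 283 and 246 CPM in mutants (log2 fold change -0.41 ± 0.08, adjusted p 0.00233). Pnldc1, the exonuclease that trims piRNAs, measured 47.8, 45.0 and 42.4 CPM in controls and 33.3, 35.7 and 32.5 CPM in mutants (log2 fold change -0.43 ± 0.08, adjusted p 0.00239). Fkbp6 and Mael, the 2 members with the highest levels per kilobase, stood at -0.31 and -0.29. None of the 10 was called, and the enzymes acting before and after trimming did not pass the FDR. Pld6, the mitochondrial nuclease also known as Zucchini, went from 44.1 ± 4.34 to 39.2 ± 2.94 CPM (SD, n = 3) and Henmt1, the methyltransferase of piRNA ends, from 40.9 ± 2.98 to 42.95 ± 2.26 CPM, with adjusted p of 0.155 and 0.635. Asz1, a mitochondrial partner of the nuclease, and Exd1, a PIWI-bound adaptor, did not pass either, at -0.27 and -0.08, although Asz1 did with the block (adjusted p 0.0101). Ddx4 itself measured 410, 461 and 377 CPM in controls and 374, 385 and 321 CPM in mutants, and the groups overlapped (adjusted p 0.0663, and 0.00473 with the block).

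None of the PIWI genes passed in c-Kit+ cells without the block, and Piwil1 passed the FDR with it (log2 fold change -0.34 ± 0.10, adjusted p 0.0226). Piwil2 measured 616, 678 and 565 CPM in controls and 614, 655 and 533 CPM in mutants, a log2 fold change of -0.06 ± 0.09 with an adjusted p of 0.62. It was the second most abundant member in the controls, with 13% of the summed CPM, and the most abundant in the mutants, with 16.6%. Piwil1 measured 19.6, 21.5 and 18.9 CPM in controls and 15.5, 19.05 and 13.7 CPM in mutants (adjusted p 0.0723). In the nuclear silencing group, Tex19.1 and Morc1, both needed to keep transposons silent in germ cells, passed the FDR with log2 fold changes of -0.41 and -0.31 (0.12 and 0.22 under the germ list scaling), while Spocd1 did not pass. Spocd1, which joins MIWI2 to DNA methylation, was at only 4.22 to 5.401 CPM in the controls. Tex19.1 has a paralog, Tex19.2, and how reads shared by the pair were counted is not given in the sources used here.

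**Figure D2:**
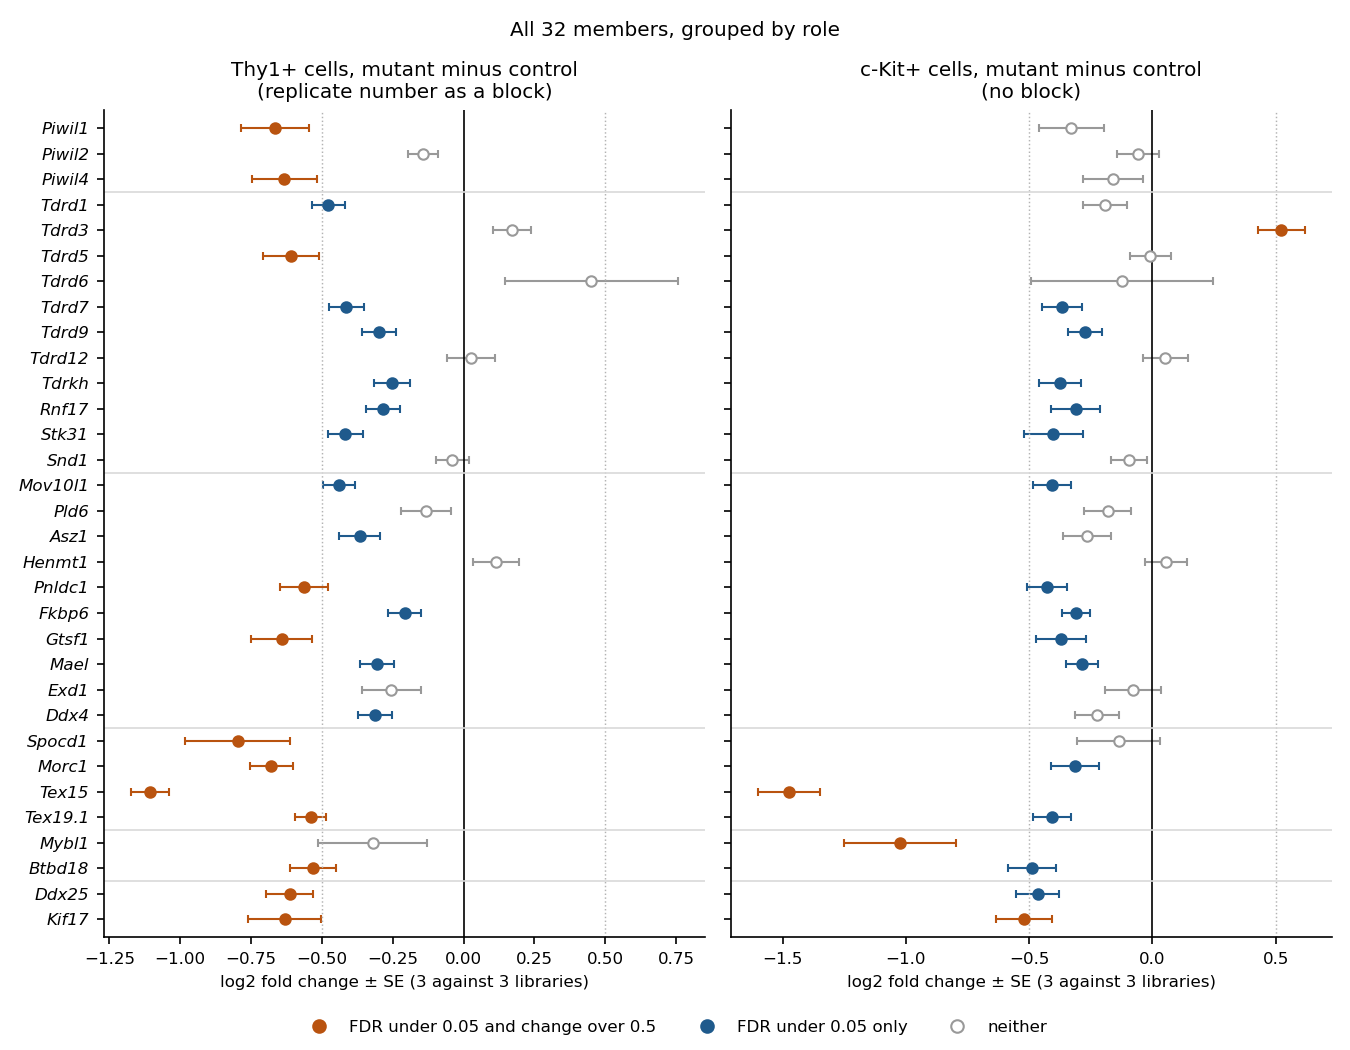
Log2 fold change between mutant and control with its standard error (horizontal axis) for each of the 32 genes, grouped by role, in Thy1+ cells with the replicate number as a block and in c-Kit+ cells without it, 3 against 3 libraries each. Filled orange points passed the FDR and the minimum change marked by dotted lines, and filled blue points the FDR only. Tex15 is the leftmost point in both panels and Tdrd3 the rightmost in the c-Kit+ panel. The panels come from unlike fits, and with the block c-Kit+ cells also had 3 members called lower and 1 higher.

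The composition of the c-Kit+ libraries moved with the genotype. The summed CPM of 12 germ cell genes that are not members, Dazl, Zbtb16, Sall4 and Uchl1 among them, was 3332 to 3858 in controls and 2464 to 2777 in mutants. The sum of the 32 members followed with 4504 to 5255 in controls and 3362 to 3850 in mutants, so that their ratio to the germ list was 1.34 ± 0.031 in controls and 1.38 ± 0.019 in mutants (SD, n = 3). Over the 37 markers of Sertoli, Leydig, peritubular myoid, stromal, endothelial, macrophage and mast cells the sum was 3410 to 4593 CPM in controls. In mutants it was higher, at 6749 to 8282 CPM. Of the 37 markers 27 were called higher, against 14.8% of all genes, and none lower, against 7.41%. The 8 meiotic prophase genes went from 1016 to 1597 CPM to 462 to 519.9 CPM. All 8 were called lower, against 7.41% of all genes. In bulk samples fewer cells of a type and less RNA per cell cannot be told apart, and the part of this composition in the members' values was not tested. Scaling to the germ list moved the median of all tested genes from 0.01 to 0.54, and the members' median to 0.23, which is below that of all genes. The germ list is not a neutral ruler, since 4 of its 12 genes were called lower in these cells. They were Taf4b, Taf7l, Tex14 and Rhox13, with log2 fold changes of -0.62, -0.84, -0.75 and -1.64, while Dazl, Zbtb16, Sall4 and Uchl1 were not called.

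**Figure D3:**
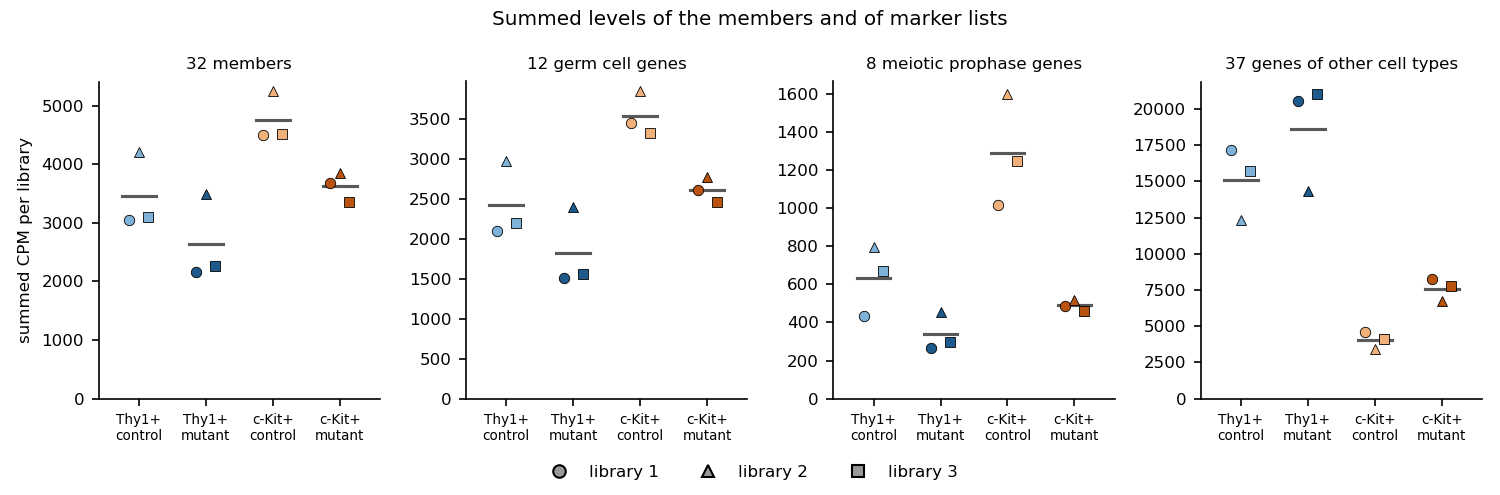
Summed CPM per library (vertical axis, from 0) of the 32 members, of 12 germ cell genes, of 8 meiotic prophase genes and of 37 genes of other testis cell types in the 4 groups; symbols mark library numbers and bars the group means. In c-Kit+ cells the mutants sit below the controls for the first 3 lists and above them, at 6749 to 8282 against 3410 to 4593 CPM, for the other cell types.

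Relative to the germ list within the same library, Tex15 had 199, 270 and 257 CPM per 1000 CPM of the list in c-Kit+ controls and 118, 120 and 121 in mutants. Kif17 had 7.23, 6.501 and 6.08 in controls and 6.04, 6.32 and 6.53 in mutants by the same measure, and these groups overlap. Tdrd3 had 7.44, 6.63 and 9.10 in controls and 15.6, 13.5 and 16.3 in mutants. Of the 4 members called, Tex15 and Tdrd3 therefore moved in opposite directions relative to the germ list, with separate libraries, and Kif17 had overlapping libraries. Mybl1 had 3.84, 7.12 and 6.30 in controls and 4.27, 3.84 and 3.599 in mutants, and these overlap as well.

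**Figure D4:**
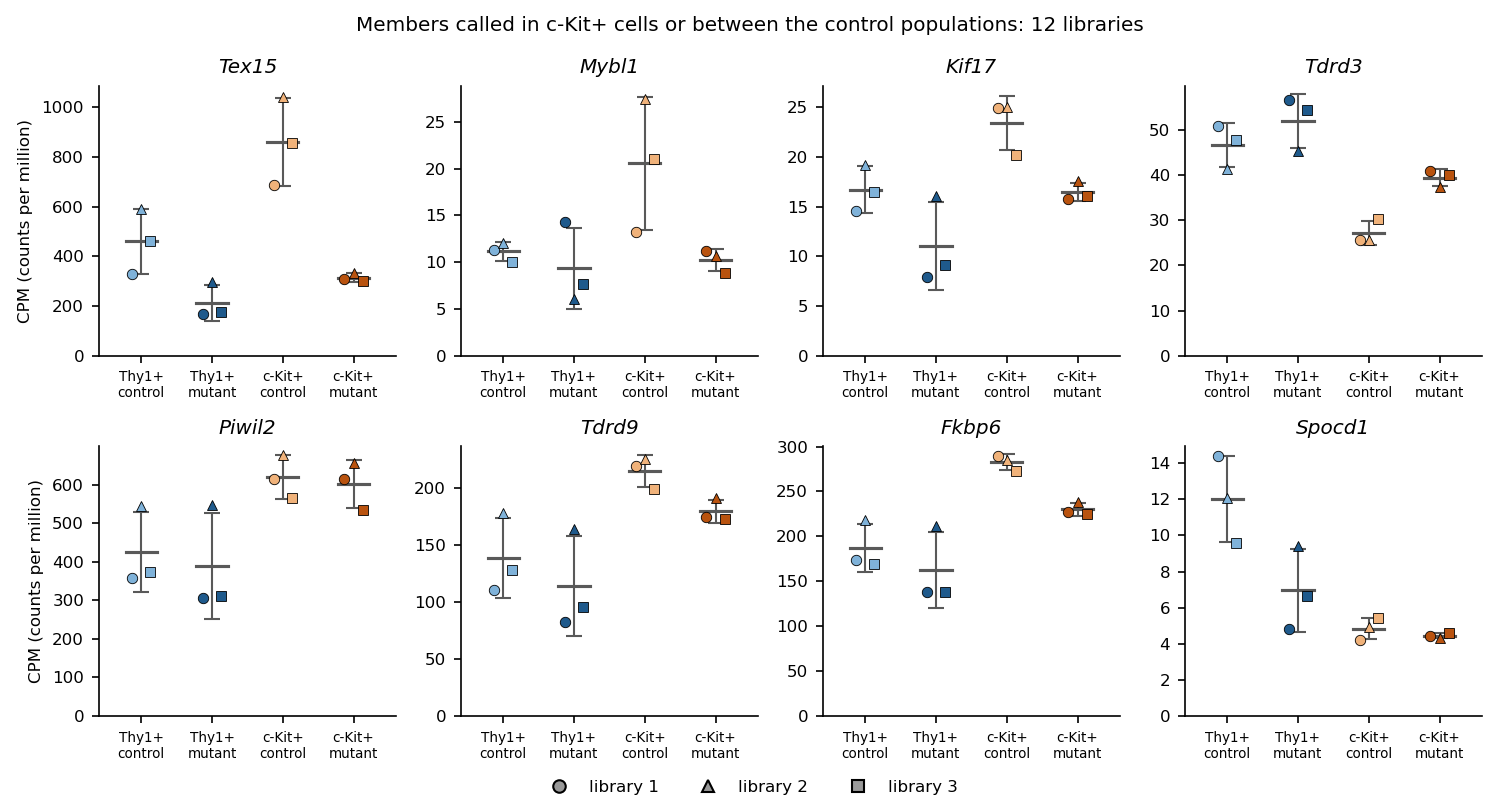
CPM per library (vertical axis, from 0) of 8 members in the 4 groups, with symbols for library numbers, bars for group means and whiskers for the SD of 3 libraries. In c-Kit+ cells Tex15 is at 686 to 1041 CPM in controls and 299 to 333 in mutants, Tdrd3 runs the other way, and Spocd1 is highest in the Thy1+ controls.

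In Thy1+ spermatogonia the same comparison called none of the 32 members by edgeR's quasi-likelihood test, lower or higher, and it called 0% of the 17416 genes tested in either direction. At an unadjusted p under 0.05, 10 members were lower, against 7.69% of all genes, and none higher, against 4.66%. The exact test of edgeR, DESeq2 and a joint fit of the 12 libraries each called 1 member, Tex15, as lower, against 1.57%, 1.87% and 1.31% of all genes. The point estimate was lower in 28 of 32 members with a median of -0.38, beside 0.02 over all genes, and in 12 of 32 after scaling to the germ list, which moved the median of all genes to 0.55 and that of the members to 0.13. The members' median moved when single libraries were left out: it was -0.18 without control library 2, -0.64 without mutant library 2 and -0.25 without mutant library 1. Without both libraries numbered 2 it was -0.43, with 28 of 32 point estimates lower.

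Libraries with the same number deviated together in these cells, and with the replicate number as a block the common coefficient of variation fell from 20.9% to 8.30%. In that fit 12 members were called lower, against 4.92% of all genes, and none higher, against 3.2% of all. At the FDR alone 23 members (71.9%) were lower, against 13.6% of all. After scaling to the germ list the blocked fit called 1 member lower, Tex15 again, against 1.46% of all genes, and 4 higher, Tdrd3, Tdrd6, Tdrd12 and Henmt1, against 49% of all. Leaving out pair 1, 2 or 3 of same-numbered libraries gave 8, 15 or 11 members called lower, against 4.37%, 4.65% and 4.29% of all genes.

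By role, the blocked calls fell on all 4 nuclear silencing genes, on 2 of 3 PIWI genes and on 2 of 10 processing genes. They also fell on 1 of 11 Tudor domain genes, on Btbd18 and on both Ddx25 and Kif17. Of these, Tex15 alone was still called with the block under the germ list scaling. The germ list is not a neutral ruler in this fit, since 6 of its 12 genes were themselves called lower with the block. Tex15 measured 328, 591 and 463 CPM in controls and 166, 296.5 and 177 CPM in mutants, in the order of the library numbers. No mutant library reached the lowest control, and the blocked log2 fold change was -1.11 ± 0.07 (adjusted p 6.88e-08). Without the block it was -1.10 ± 0.28 (adjusted p 0.249).

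Spocd1 measured 14.4, 12.1 and 9.61 CPM in Thy1+ controls and 4.83, 9.40 and 6.67 CPM in mutants. The groups did not overlap, by a narrow margin, and the blocked log2 fold change was -0.80 ± 0.19 (adjusted p 0.00408). Morc1, an ATPase of the GHKL family that represses transposons, measured 56.5, 64.7 and 42.6 CPM in controls and 30.5, 42.64 and 28.4 CPM in mutants, so that mutant library 2 touched control library 3. It was lower within each of the 3 pairs (blocked log2 fold change -0.68 ± 0.08, adjusted p 1.32e-05).

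Piwil4 measured 18.5, 19.98 and 14.3 CPM in Thy1+ controls and 9.94, 14.1 and 9.80 CPM in mutants. Piwil1 measured 15.4, 18.8 and 13.2 CPM in controls and 8.39, 13.5 and 8.05 CPM in mutants. The groups did not overlap for Piwil4 and overlapped for Piwil1, and with the block both were called, at -0.63 ± 0.11 (adjusted p 0.000649) and -0.67 ± 0.12 (adjusted p 0.000576). Piwil2, by contrast, measured 357, 545 and 375 CPM in controls and 307, 548 and 312 CPM in mutants, and its blocked difference was -0.14 ± 0.05 (adjusted p 0.0552).

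Of the remaining calls, Gtsf1, a zinc finger cofactor of PIWI cleavage, stood at -0.64, Tdrd5, a LOTUS and Tudor domain protein of the chromatoid body, at -0.61 and Pnldc1 at -0.56. Kif17, Ddx25, Tex19.1 and Btbd18 stood at -0.63, -0.61, -0.54 and -0.53. Libraries of the groups were separate without any pairing for 4 members, Piwil4, Tdrd7, Spocd1 and Tex15, all lower. That is 12.5% of the 32, against 11.1% of all genes, and close to the background. No member had separate libraries in the other direction, against 6.53% of all genes. Within same-numbered libraries 25 members had a lower CPM in the mutant in all 3 pairs, against 28.1% of all genes, and Tdrd3, Tdrd6 and Henmt1 a higher CPM in all 3, against 29.9%. In c-Kit+ cells these were 24 members, against 31.1% of all genes, and 2 members, against 36.2%. Mybl1 had no common direction in the Thy1+ pairs, with 11.3, 12.1 and 10.0 CPM in controls and 14.3, 6.01 and 7.69 CPM in mutants.

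**Figure D5:**
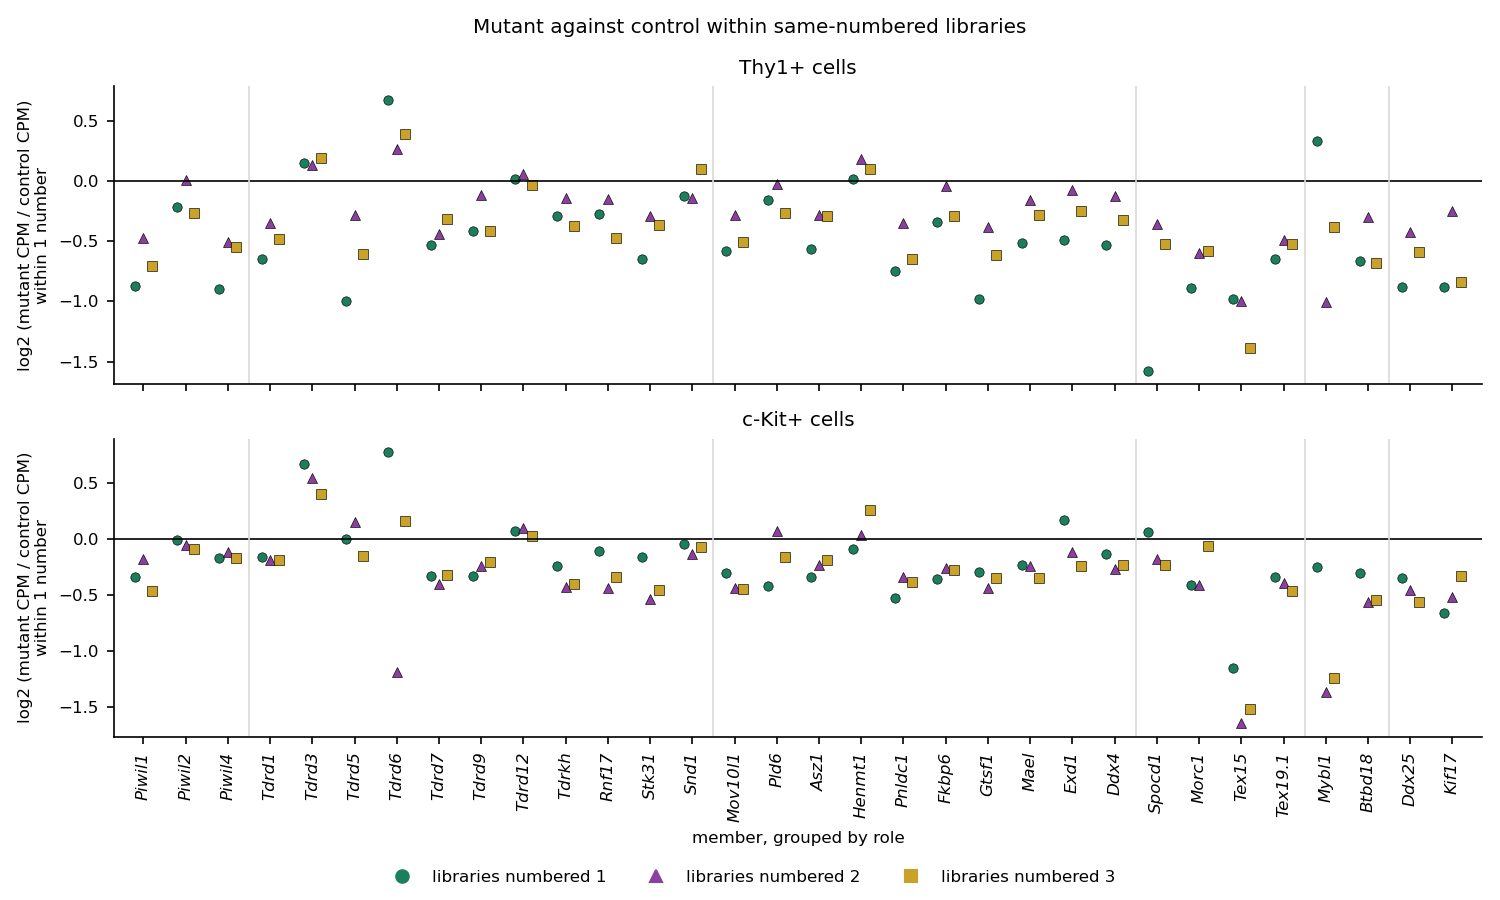
Log2 ratio of mutant to control CPM within libraries of the same number (vertical axis) for each of the 32 genes, grouped by role, in Thy1+ and c-Kit+ cells; symbols mark the 3 numbers. In Thy1+ cells 25 genes lie below 0 in all 3 pairs and the pair numbered 2 lies nearest to 0 for 25 of the 32; in c-Kit+ cells 24 genes lie below 0 in all 3 pairs, with Tex15 lowest in each. These ratios are of CPM, and after scaling to the germ list only 12 and 2 of the 32 fitted differences were below 0.

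The Thy1+ libraries held more RNA of other cell types than the c-Kit+ libraries. The 37 markers summed to 12310 to 17190 CPM in the controls and to 14360 to 21010 CPM in the mutants, most of it from the 6 stromal genes, and none of the 37 was called without the block. With the block 10 of the 37 were called higher, against 3.2% of all genes. These were all 7 Sertoli genes and Lum, Adgre1 and Mcpt4 of stromal, macrophage and mast cells. The Sertoli sum was 2061, 465 and 513 CPM in controls and 2635, 913 and 946 CPM in mutants, highest in library 1 of both groups. The 8 meiotic prophase genes summed to 433.5 to 796.5 CPM in controls and 267 to 455 CPM in mutants. All 8 were called lower with the block, against 4.92% of all genes. The 12 germ cell genes summed to 2101 to 2980 CPM in controls and to 1515 to 2397 CPM in mutants, with library 2 highest in both. The ratio of the members' sum to the germ list was 1.42 ± 0.021 in controls and 1.44 ± 0.017 in mutants. The part of the composition in the members' values was not tested.

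Whether the genotype difference itself differed between c-Kit+ and Thy1+ cells was tested as an interaction over all 12 libraries. By edgeR it called none of the 32 members and 0% of the 18002 genes tested. DESeq2 and the fit with the replicate block also called no member, while they called 0.356% and 2.48% of all genes. At an unadjusted p under 0.05 there were 4 members, 12.5% of the 32 against 10% of all genes, which is close to the background. They were Piwil4, Tdrd3, Tdrd5 and Spocd1, each with a higher value in the c-Kit+ than in the Thy1+ difference, by 0.53 ± 0.23, 0.42 ± 0.16, 0.64 ± 0.26 and 0.70 ± 0.32 on the log2 scale, and with adjusted p of 0.443 to 0.492. The larger number of calls in one population than in the other was therefore not shown to be a difference between populations.

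The third comparison set the Thy1+ controls against the c-Kit+ controls, which are enriched for undifferentiated and for differentiating spermatogonia and also differ in composition. Piwil2, Tdrd9, Tdrkh, Rnf17, Pld6, Henmt1, Fkbp6, Tex15 and Mybl1 were lower in Thy1+ than in c-Kit+ cells, and Tdrd3 and Spocd1 were higher. These are 9 members called lower, against 7.08% of all 17350 genes tested, and 2 called higher, against 20.7%. The groups did not overlap for 14 members that were lower, against 25.5% of all genes, and for 2 that were higher, against 29% of all. The median log2 fold change was -0.33, beside 0.03 over all genes. Point estimates were lower for 26 of the 32 members, and for 21 after scaling to the germ list, which moved the median of all genes to 0.26 and that of the members to -0.11. Under that scaling Pld6 and Tex15 were called lower, against 2.07% of all genes, and Piwil4, Tdrd3, Tdrd5, Spocd1 and Morc1 higher, against 24.9%. Of the 12 germ list genes themselves, 7 were called lower and 2 higher between these controls, so the list is not a neutral ruler here either. The 37 markers of other cell types summed to a mean of 15067 CPM in Thy1+ controls and 4042 CPM in c-Kit+ controls. The germ list summed to 2427 and 3546 CPM. The ratio of the members' sum to the germ list was higher in Thy1+ controls, at 1.42 ± 0.021 against 1.34 ± 0.031 (SD, n = 3). The part of this composition in the members' values was not tested. The c-Kit+ controls also served in the first comparison and the Thy1+ controls in the second, so the comparisons are not independent.

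Spocd1 had the largest difference, with 14.4, 12.1 and 9.61 CPM in Thy1+ controls and 4.22, 4.90 and 5.401 CPM in c-Kit+ controls. Its log2 fold change was 1.34 ± 0.20 (adjusted p 0.00124), the groups were clearly separate, and the call held under the germ list scaling. Tdrd3 measured 51.1, 41.5 and 47.8 CPM in Thy1+ controls and 25.7, 25.6 and 30.3 CPM in c-Kit+ controls (log2 fold change 0.81 ± 0.12, adjusted p 0.00143).

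Tex15 measured 328, 591 and 463 CPM in Thy1+ controls, below all 3 c-Kit+ controls (log2 fold change -0.88 ± 0.22, adjusted p 0.0153). Mybl1 measured 11.3, 12.1 and 10.0 CPM in Thy1+ controls, below all 3 c-Kit+ controls (log2 fold change -0.86 ± 0.24, adjusted p 0.0254). Pld6 measured 20.8, 31.6 and 22.3 CPM in Thy1+ controls and 48.8, 40.2 and 43.3 CPM in c-Kit+ controls, a log2 fold change of -0.79 ± 0.17 (adjusted p 0.00782). Henmt1, which acts at the other end of the pathway, stood at -0.57 ± 0.16 (adjusted p 0.0221).

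Tdrkh and Rnf17 stood at -0.70 and -0.69 and Tdrd9, the helicase partner of MIWI2, at -0.60. Fkbp6 measured 174, 218 and 169.6 CPM in Thy1+ controls and 290, 285 and 272 CPM in c-Kit+ controls (log2 fold change -0.57 ± 0.11, adjusted p 0.00452). Piwil2 measured 357, 545 and 375 CPM against 616, 678 and 565 CPM, and its value of -0.51 ± 0.16 (adjusted p 0.0357) was near the limit. The number of members called lower depended on single libraries. It was 20 without Thy1+ control library 2, 4 without Thy1+ control library 3, and 3 without c-Kit+ control library 2, and the share of all genes called lower moved as well, to 11.3%, 6.27% and 3.53%, while leaving out both libraries numbered 2 gave 9. The call of Piwil2 was lost in 5 of the 6 fits that leave out 1 library, that of Henmt1 in 4, those of Tdrd9 and Mybl1 in 3, that of Rnf17 in 2 and that of Tex15 in 1, and Fkbp6, Tdrkh, Pld6, Spocd1 and Tdrd3 were called in all 6.

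A wider list of 20 further genes of the piRNA pathway and of germ granules, of which 18 are in the table, was described in the same fits. It shares Nanos3 and Tex14 with the germ list. In c-Kit+ cells 7 of 17 tested were called lower in the mutants, against 7.41% of all genes, and none higher, against 14.8%. Meioc and Ythdc2, partners in the switch from mitosis to meiosis, stood at -3.04 ± 0.23 and -0.88 ± 0.13, with adjusted p of 8.67e-05 and 0.000664. Gpat2, a mitochondrial acyltransferase with a part in piRNA production, went from 189 ± 21.6 to 90.9 ± 6.37 CPM (log2 fold change -1.07, adjusted p 0.000128). Ybx2, an RNA-binding protein that stores germ cell messages, Tex14, a protein of intercellular bridges, the histone methyltransferase gene Setdb1 and the chaperone gene Hspa2 stood at -1.68, -0.75, -0.71 and -0.62.

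In Thy1+ cells none of the 18 was called without the replicate block. With it 6 were called, Gpat2, Nanos2, Nanos3, Ybx2, Tex14 and Meioc, all lower, against 4.92% of all genes. Between the controls Gpat2, Ybx2, Tex14, Ythdc2 and Meioc were lower in Thy1+ cells, and Nanos2 and Nanos3, which keep spermatogonia undifferentiated, were higher. These are 5 of 18 called lower, against 7.08% of all genes, and 2 called higher, against 20.7%. Nanos2 was at 2.86 ± 0.776 CPM in Thy1+ controls and at 0.136 ± 0.121 CPM in c-Kit+ controls.

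Among 10 genes of microRNA and other small RNA pathways used by all cells, Ago3 and Ago4 fell and Ago2 and Prkra rose in mutant c-Kit+ cells. That is 2 called lower, against 7.41% of all genes, and 2 called higher, against 14.8%. The other 6 were not called. Of these, Drosha, Dgcr8, Tarbp2 and Ago1 passed the FDR as lower with smaller changes, and Dicer1 and Xpo5 did not pass. The log2 fold changes were -0.62 for Ago3, -0.999 for Ago4, 0.72 for Ago2 and 1.03 for Prkra, a partner of Dicer. No gene of this list was called in Thy1+ cells, with or without the block. With the block Drosha, Ago3, Tarbp2 and Prkra passed the FDR there, with adjusted p of 0.000251, 0.00189, 0.0345 and 0.0015. Their log2 fold changes without the block were -0.30, -0.40, -0.19 and 0.37. Between the controls Ago2 was higher in Thy1+ cells (log2 fold change 0.93, adjusted p 0.00404) and Ago4 lower (-0.71, adjusted p 0.0285). That is 1 called higher, against 20.7% of all genes, and 1 called lower, against 7.08%.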

How the data were processed

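RNA of 12 libraries was sequenced after poly(A) selection. Per the methods and the submitters' processing notes, the authors trimmed reads with Trimmomatic 0.39, aligned them to mm10 with HISAT2 2.1.0 and deposited raw counts per gene from featureCounts (2.0.3 in the file header), made without a strand option. Both reads of a fragment were counted, and how reads shared by near-identical genes were treated is not given in the sources used here. The libraries for chromatin binding were not analysed here.

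From the counts, edgeR 4.0.16 in R 4.3.3 was run with TMM scaling, its default filter on low counts, quasi-likelihood F tests and Benjamini-Hochberg adjustment over all genes tested. Calls required an FDR under 0.05 together with a log2 fold change beyond 0.5 either way, and the interaction at the FDR alone. CPM values use TMM factors over 12 libraries. Rows without a gene symbol held 0.511% to 0.776% of the counts. The fits were also run on simulated counts with known changes, drawn without an effect shared by same-numbered libraries and without a shift in composition. That run does not bear on the blocked calls or on the germ list scaling. All members, and any gene of the wider lists that was called, could be named. Members and lists were chosen with earlier results of these data known.

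Replicate numbers come from the labels. Same-numbered libraries correlated in their deviations from the group means with r of 0.267 to 0.491 in Thy1+ cells, 0.101 to 0.125 in c-Kit+ cells and 0.133 to 0.297 between the controls, over 0.1 in all 3 pairs of each, and were taken as paired. For the interaction 10 of 18 did so, and the numbers were not taken as a pairing. The pairing was read from these same data, and the main fit of every comparison used no block. Alternatives were edgeR's exact test, DESeq2 1.42.0, other scalings, no filter, a joint fit, the block and each library left out. Leaving out both libraries numbered 2, leaving out pairs under the block, and the block with germ list scaling were chosen after seeing the data.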

Additional observations from a re-analysis of the deposited data

How the results depend on the processing

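Under scaling by library size, DESeq2 size factors or no filter, every comparison between 2 groups kept its count of called members within 1.5 times. In Thy1+ cells 0 members were called lower, against 1 by the exact test, by DESeq2 and in the joint fit, 12 with the replicate block, 8, 15 and 11 with the block when pair 1, 2 or 3 was left out, and 1 lower and 4 higher with the block and germ list scaling, which called 49% of all genes higher. The members' median there became 0.13 with germ list scaling and 0.12 with the block added, and ran from -0.64 to -0.18 with 1 library left out. In c-Kit+ cells germ list scaling gave 1 lower and 4 higher, against 1.9% and 46.9% of all genes, with a median of 0.23. The FDR alone gave 17 lower, against 18.3% of all genes. The block without pair 1 gave 5 lower and 0 higher, against 8.43% and 15.5%. With 1 library left out the counts there ran from 2 to 5 lower, with 5 without mutant library 2, and from 0 to 1 higher. The shares of all genes in these fits ran from 5.94% to 8.05% lower and from 12% to 15.6% higher.

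Germ list scaling left 2 of 32 c-Kit+ differences below 0 in place of 29, and turned 15 of the 17 that had passed the FDR as lower positive: Tdrd7 to 0.16, Tdrd9 to 0.26, Tdrkh to 0.15, Rnf17 to 0.22, Stk31 to 0.13, Mov10l1 to 0.12, Pnldc1 to 0.10, Fkbp6 to 0.22, Gtsf1 to 0.16, Mael to 0.24, Morc1 to 0.22, Tex19.1 to 0.12, Btbd18 to 0.03996, Ddx25 to 0.0614 and Kif17 to 0.00805. That scaling sets the mean log level of 12 genes equal, and 4 of these were called lower in c-Kit+ cells. In Thy1+ cells 6 of them were called lower with the block, and between the controls 7 were called lower and 2 higher. Between the controls the scaling gave 2 members lower and 5 higher with a median of -0.11. With 1 library left out, the controls gave 3 to 20 lower, against 3.53% to 11.3% of all genes, and 2 to 3 higher, against 16.5% to 20.6%. Their medians ran from -0.54 to -0.26, and the interaction gave 0 calls and medians from -0.13 to 0.38. The cause of these changes was not tested. The block moved no other count of called members by over 1.5 times. Tdrd6, at 1.01 to 2.94 CPM, is limited by depth.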
